A study of Homo sapiens with 10 samples.

Results

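The regions described here were nearly free of acetylation of histone H3 at lysine 27 (H3K27ac) in untreated H1975 cells and carried it in cells that had survived osimertinib. They were chosen by their H3K27ac counts, with levels given as CPM, the reads in a region scaled to a common total of reads counted over all regions of a library. A region was a member if it had under 0.5 CPM in all 3 DMSO libraries and at least 2 CPM in all 3 osimertinib DTP libraries. This selected 622 of 169637 regions of 502 bp, or 0.367%. H1975 is an established human lung adenocarcinoma line with mutant EGFR, and osimertinib inhibits mutant EGFR. ChIP-seq, which sequences the DNA bound to the marked histones, was done in 3 groups of 3 libraries each, labelled as biological replicates, and in 1 pooled input library without immunoprecipitation. DMSO cells spent 21 days without drug and then 3 days in DMSO. Osimertinib DTP cells, the drug-tolerant persisters, spent 24 days in osimertinib at 500 nM. Osimertinib DTP + AZD5153 cells spent 21 days in osimertinib at 500 nM and then 3 days in AZD5153 at 150 nM. The titles call this group a combo, but the labels do not say whether osimertinib was kept during those 3 days. By their labels all groups are cultures of this 1 line, so they share its starting genotype. Whether genotype or copy number changed during treatment was not tested. The rule did not use the osimertinib DTP + AZD5153 libraries, and their levels are the main result below.

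H3K27ac marks active promoters and enhancers. It is written by the acetyltransferases p300 and CBP, removed by histone deacetylases, and its acetyl groups, with others on histones, are read by proteins with bromodomains. AZD5153 is a bivalent inhibitor of BET bromodomains. An enhancer may lie far from the gene it acts on, so the gene symbols below name only the gene to which the deposited annotation assigned a region.

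The members held few reads in DMSO. Under 0.5 CPM meant at most 4 or 5 reads in a DMSO library, and at least 2 CPM meant at least 18 or 19 reads in an osimertinib DTP library. The sum over the 3 libraries of a group had a median of 7 reads in DMSO and 122 in osimertinib DTP, and 3 members had no DMSO read at all. The members nearest to the DMSO limit had a highest DMSO level of 0.478 CPM, and the nearest regions left out, among them 1 assigned to KSR2, had 0.532 CPM. The members nearest to the osimertinib DTP limit had a lowest level of 2.02 CPM, and the nearest regions left out had 1.94 CPM. In all, 5682 regions stayed under the DMSO limit, and 5060 of them missed the osimertinib DTP limit in at least 1 library.

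Library totals over all regions ran from 6263443 to 10463351 reads, and the input had 1870885. Replicate 3 of osimertinib DTP + AZD5153 had the lowest total and stood apart, with a Spearman coefficient across all regions of 0.430 and 0.354 with replicates 1 and 2, which had 0.890 with each other. Counts and shares for that group are therefore also given without it where the tables allow. The name of the peak list deposited for replicate 3 of osimertinib DTP gives another cell line, H1875, while its labels give H1975, and the labels were followed. Without that library 649 regions met the rule. Of the 622 members, edgeR then called 488 higher in osimertinib DTP and 531 higher in osimertinib DTP + AZD5153 than in DMSO. Of all 162949 regions tested in that fit, 3010 and 11806 were. The members had been chosen with that library and with low DMSO levels, so their counts largely describe the rule. The epithelial markers EPCAM, KRT8, KRT18, KRT19 and CDH1 and the lung factor NKX2-1 all had a region in the promoter class, with group means from 9.97 CPM at KRT18 to 69.9 CPM at KRT8. In the same order the input had 5.35, 17.6, 9.09, 6.95, 7.48 and 4.81 CPM. KRT18, with group means of 9.97, 14.5 and 10.2 CPM, thus stood little above its input on this scale. CDH1 fell to 3.28 CPM in its lowest library. Each library, the input included, is scaled to its own reads within the regions. A CPM above or below the input therefore does not measure enrichment. No promoter region was listed for the blood markers PTPRC and CD3E or for the endothelial PECAM1, while the endothelial CDH5 had 7.97 to 26 CPM against 12.3 CPM in the input. EGFR had 27.3, 28.2 and 27 CPM as the means of DMSO, osimertinib DTP and osimertinib DTP + AZD5153.

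Most members stayed at 2 CPM or more after AZD5153 in replicates 1 and 2. The median level over members was 0.319, 0.191 and 0.226 CPM in the DMSO libraries and 3.84, 3.35 and 6.06 CPM in osimertinib DTP, which the rule chose. Replicate 3 was the highest osimertinib DTP library at 442 members (71.1%), against 39.6% of all regions. After AZD5153 the median was 5.17 and 5.89 CPM in replicates 1 and 2 and 0.798 CPM in replicate 3. At least 2 CPM were reached by 79.6% (exact binomial interval 76.2% to 82.7%) and 85.0% (82.0% to 87.8%) of members in replicates 1 and 2, and by 20.7% (17.6% to 24.1%) in replicate 3. Over all regions these shares were 56.2%, 51.8% and 52.2%. The members thus lay above the share of all regions in replicates 1 and 2 and below it in replicate 3. The pooled input reached 2 CPM at 88.4% of members and 92.7% of all regions, so this level alone does not mark acetylation. All 3 libraries of osimertinib DTP + AZD5153 reached 2 CPM at 118 members (19%), against 29.4% of all regions. Replicates 1 and 2 both did so at 476 members (76.5%), against 46.3% of all regions. Replicate 3 was the lowest of its group at 571 members (91.8%), against 49.2% of all regions. These intervals cover counting error only.

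**Figure D1:**
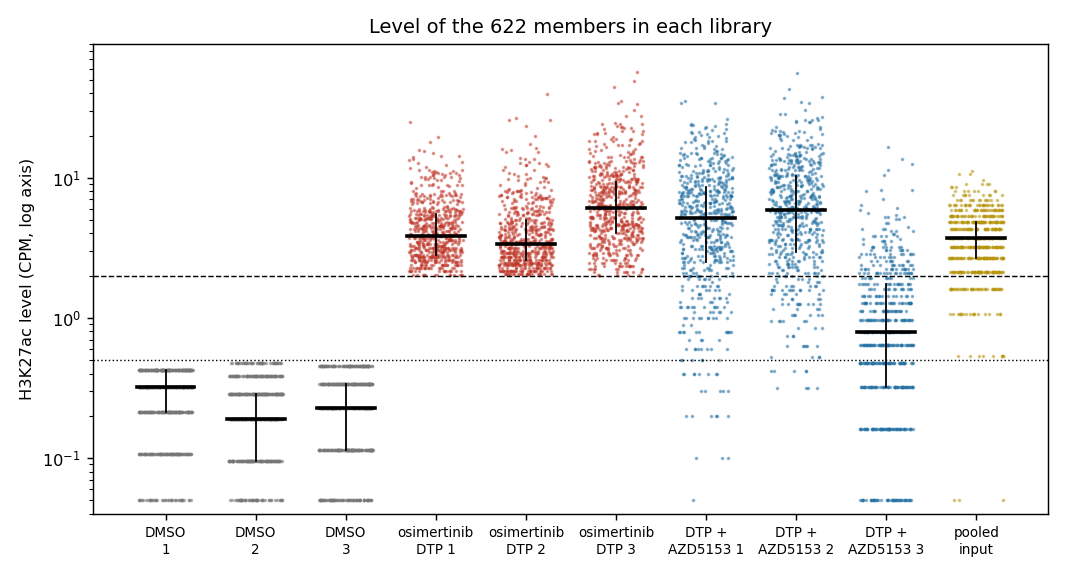
H3K27ac level of the 622 members in each library, in CPM on a log axis. Each point is a member, with 0 drawn at 0.05. Thick lines are medians and thin lines span the middle quartiles. The dotted and dashed lines are the limits of the rule, 0.5 and 2 CPM. Replicates 1 and 2 of osimertinib DTP + AZD5153 have medians of 5.17 and 5.89 CPM, and replicate 3 has 0.798 CPM.

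The peak lists, deposited as 1 list per library, gave the same order of the AZD5153 libraries. No member lay under a peak of a DMSO list, which the rule made likely. Peaks covered 503, 609 and 592 members in osimertinib DTP, and 507, 544 and 120 members after AZD5153. The median fold enrichment of those peaks over background was 5.52, 7.60 and 8.11 in osimertinib DTP, and 9.84, 12.1 and 5.25 after AZD5153. Over all regions, 47.5% to 54.1% lay under a peak of an osimertinib DTP list and 46.8% to 53.6% under a peak of an osimertinib DTP + AZD5153 list. The median input level was 3.74 CPM over members and 5.35 CPM over all regions. The osimertinib DTP mean exceeded the input CPM at 418 members (67.2%) and at 31.1% of all regions, and the mean of replicates 1 and 2 of osimertinib DTP + AZD5153 did so at 427 members (68.6%) and at 30.4% of all regions. All 3 osimertinib DTP libraries were above the input at 271 members (43.6%) and 18.8% of all regions, and all 3 libraries with AZD5153 at 53 members (8.52%) and 12% of all regions. Because the input is scaled to its own reads within the regions, these shares do not measure enrichment.

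In the fit over all regions (edgeR quasi-likelihood test, Benjamini-Hochberg adjusted p under 0.05), 622 of 622 members were called higher in osimertinib DTP than in DMSO, where 5.58% of all tested regions were. This contrast chose the members, so the count describes the rule. Against DMSO, 550 of 622 members (88.4%) were called higher in osimertinib DTP + AZD5153 and 0 lower, where 9.05% of all tested regions were higher. The low DMSO levels in this comparison were also fixed by the rule. Without replicate 3 of osimertinib DTP + AZD5153 the count was 591, and 29786 of all 161758 regions tested in that fit were higher. Against osimertinib DTP, edgeR called 0 members higher and 0 lower, as it did over all regions (0%). At an unadjusted p under 0.05, 80 members (12.9%) were lower and 14 (2.25%) higher, where 2.85% and 1.6% of all tested regions were. DESeq2 called 13 members lower and 0 higher, and 0.0431% of all regions lower. Without replicate 3 of osimertinib DTP + AZD5153, edgeR called 7 members lower and 1 higher, against 0.0587% and 0.0637% of all regions. All 622 members passed the filter on low counts, because the osimertinib DTP group is high at them by the rule. This comparison shares the osimertinib DTP libraries with the rule.

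The calls lower than in osimertinib DTP were not spread over the members. All 13 members called by DESeq2, and all 7 called by edgeR without replicate 3, lay in 2 blocks of neighbouring members, on chromosome 19 and on chromosome X. The blocks are the largest groups of members when those within 100 kb of each other are joined. They were picked out after the data had been seen and have no test of their own. The first holds 26 members at chr19:27634836-27868526 (234 kb, hg38) and the second 19 members at chrX:58088159-58249912 (162 kb). Both lie beside the centromere of their chromosome. Replicate 3 was the highest osimertinib DTP library at 25 of 26 and 19 of 19 of these members.

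In the chromosome 19 block the members had a median of 5.37, 5.18 and 11.6 CPM in osimertinib DTP and of 0.795, 1.58 and 0.319 CPM in osimertinib DTP + AZD5153. In the chromosome X block the medians were 3.95, 4.75 and 10.3 CPM, and then 0.397, 0.631 and 0.160 CPM. The DMSO medians were 0.191 to 0.339 CPM and 0.191 to 0.226 CPM. The other 577 members had 3.84, 3.35 and 5.83 CPM in osimertinib DTP and 5.56, 6.10 and 0.798 CPM in osimertinib DTP + AZD5153. Replicates 1 and 2 of osimertinib DTP + AZD5153 were both below the lowest osimertinib DTP library at 24 of 26 and at 19 of 19 block members, and at 66 of the other 577 (11.4%). Of all regions 18.8% were. All 3 libraries were below the lowest osimertinib DTP library at 24, 19 and 63 members, the last being 10.9% of 577, against 5.62% of all regions. At least 2 CPM in replicates 1 and 2 were reached by 1 of 26, 0 of 19 and 475 of 577 members (82.3%), against 46.3% of all regions. Against DMSO, edgeR called 7 of 26, 1 of 19 and 542 of 577 members higher after AZD5153, or 16, 6 and 569 without replicate 3 of that group. Of all tested regions 9.05% were, or 29786 of 161758 without replicate 3. Conversely, replicates 1 and 2 were both above the highest osimertinib DTP library at 0 block members and at 189 others (32.8%), against 15.0% of all regions. At an unadjusted p under 0.05, edgeR placed 25 of 26, 19 of 19 and 36 of 577 members lower, where 2.85% of all tested regions were. The median log2 fold change against osimertinib DTP was -2.77 in the chromosome 19 block, -3.50 in the chromosome X block and 0.07 at the other members. Over 15 ways of fitting, those without 1 library included, the medians ran from -3.67 to -2.51 and from -4.00 to -3.09 in the blocks, where every member was lower in each fit, and from -0.37 to 0.47 at the other members.

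**Figure D2:**
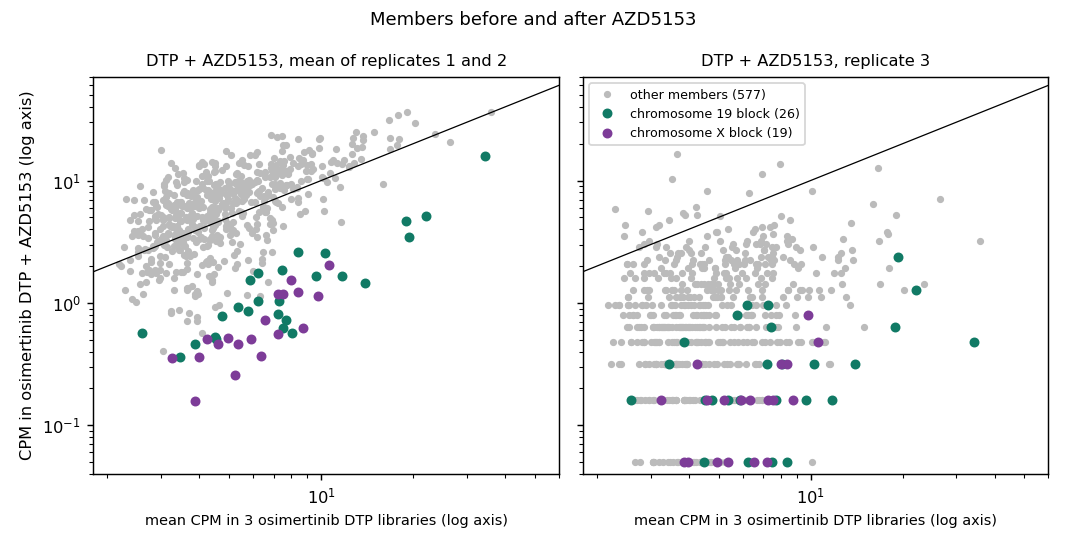
Level of each member after AZD5153 against its mean level in the 3 osimertinib DTP libraries, in CPM on log axes, with 0 drawn at 0.05. Left, the mean of replicates 1 and 2 of osimertinib DTP + AZD5153. Right, replicate 3. The black line marks equal levels. On the left the members of both blocks lie below the line while the other 577 lie around it, and on the right nearly all members lie below it.

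Most regions of the blocks had the same order of groups, members or not. The chromosome 19 block holds 104 regions, of which 97 were higher in all osimertinib DTP libraries than in all DMSO libraries, as were 71 of the 78 that are no members. The chromosome X block holds 74 regions, with 72 higher, and 53 of the 55 that are no members. Of all regions, 16.9% were. Replicates 1 and 2 of osimertinib DTP + AZD5153 were both below all osimertinib DTP libraries at 86 of 104 and at 70 of 74 regions, where 18.8% of all regions were. Among the regions that are no members, 62 of 78 and 51 of 55 were. Summed over its 104 regions, the chromosome 19 block had 88.0, 84.4 and 84.5 CPM in DMSO, 677, 891 and 1464 CPM in osimertinib DTP, and 161, 397 and 79.2 CPM in osimertinib DTP + AZD5153. The sums of osimertinib DTP did not overlap those of either other group, and replicates 1 and 2 of osimertinib DTP + AZD5153 stayed above the DMSO libraries. These sums include the members, whose DMSO and osimertinib DTP levels the rule had set. Over the 78 regions that are no members the sums were 81.0, 78.4 and 77.0 CPM, then 526, 678 and 1087 CPM, then 139, 311 and 67.7 CPM. The chromosome X block had 26.3, 47.0 and 30.7 CPM, then 314, 376 and 747 CPM, then 50.7, 131 and 14.2 CPM. Again the osimertinib DTP sums stood apart, and replicate 3 of osimertinib DTP + AZD5153 was below every DMSO library. Over the 55 regions that are no members the sums were 22.1, 42.2 and 26.4 CPM, then 235, 282 and 555 CPM, then 41.3, 112 and 10.7 CPM. Over all regions of the block the input had 434 CPM in the first and 172 CPM in the second, above every DMSO library in both. On this scale that does not measure enrichment. Per member, the median input level was 3.74 and 2.67 CPM, under the 5.35 CPM of all regions.

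The region of the chromosome 19 block with the highest DMSO level, named after its values had been seen, is no member. It is the promoter region assigned to LOC101927151, an uncharacterised RNA gene, at chr19:27793463-27793964. It had 23.5, 30.9 and 23.4 CPM in DMSO, 32.8, 34.6 and 27.4 CPM in osimertinib DTP and 33.3, 34.8 and 22.5 CPM in osimertinib DTP + AZD5153. The groups overlap there. The member with the highest osimertinib DTP mean in the block lies before it, at chr19:27672168-27672669. It had 0.106, 0.0956 and 0.339 CPM in DMSO, 14.3, 39.3 and 49.2 CPM in osimertinib DTP, and 3.28, 28.6 and 0.479 CPM in osimertinib DTP + AZD5153, where replicate 2 kept much of the signal. Beyond the block, the 10 regions in the next 500 kb had summed levels of 29.3 to 34.1 CPM in DMSO, 122 to 201 CPM in osimertinib DTP and 96.8, 163 and 14.8 CPM in osimertinib DTP + AZD5153. The 1 region in the 500 kb before the block, 0.231 kb from it, had 11.3, 24.3 and 37.7 CPM in osimertinib DTP and 1.89, 8.0 and 2.24 CPM in osimertinib DTP + AZD5153. Beside the chromosome X block, the 31 regions before it had sums of 196, 227 and 381 CPM and then 76.5, 200 and 45.5 CPM. The 5 regions after it had 7.46, 10.5 and 21.5 CPM and then 0.696, 0.631 and 5.43 CPM. On chromosome X, the 27 members outside the block had medians of 3.84, 3.35 and 6.06 CPM in osimertinib DTP and 6.16, 5.05 and 1.12 CPM in osimertinib DTP + AZD5153. The 9 members on chromosome 19 outside the block had 3.05, 4.32 and 9.31 CPM and then 1.292, 2.95 and 0.479 CPM, with replicates 1 and 2 below the osimertinib DTP median of every library.

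**Figure D3:**
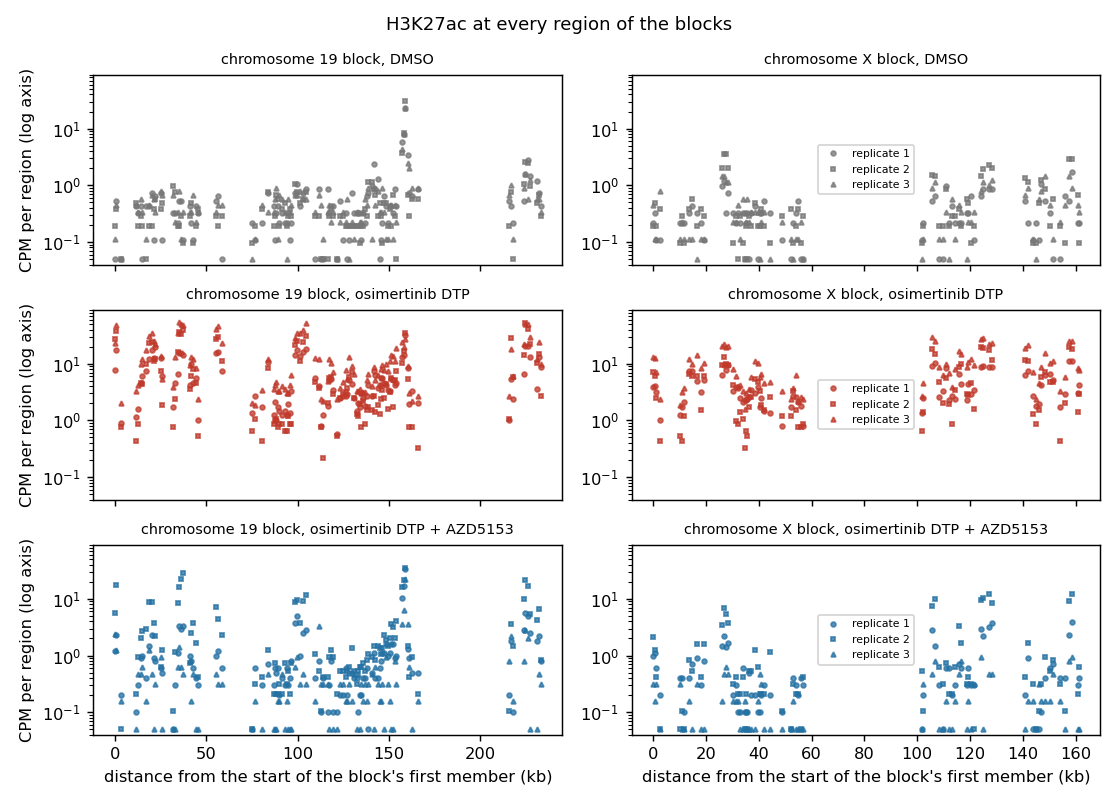
H3K27ac at all 104 regions of the chromosome 19 block (left) and all 74 of the chromosome X block (right), in CPM on a log axis with 0 drawn at 0.05, against distance from the start of the first member in kb. Rows are DMSO, osimertinib DTP and osimertinib DTP + AZD5153, and symbols are replicates. Levels are higher across both blocks in osimertinib DTP than in either other group, while the region near 159 kb on the left, the LOC101927151 promoter, is high in every row.

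The gene with the most members was LINC00662, a long non-coding RNA, with 11, all in the chromosome 19 block and all annotated as introns. Their medians were 5.08, 5.50 and 11.9 CPM in osimertinib DTP and 0.596, 1.26 and 0.160 CPM in osimertinib DTP + AZD5153. The member at chr19:27763198-27763699 had 0.106, 0.191 and 0 CPM in DMSO, 5.20, 5.72 and 13.2 CPM in osimertinib DTP and 0.497, 0.631 and 0.319 CPM in osimertinib DTP + AZD5153. Its log2 fold change against osimertinib DTP was -3.84 ± 0.72 (SE), with an adjusted p of 0.349 (edgeR). Without replicate 3 it was -3.70 ± 0.68 (SE, edgeR, adjusted p = 0.0404). The member at chr19:27752236-27752737 had a log2 fold change of -3.46 ± 0.66 without replicate 3 (SE, edgeR, adjusted p = 0.0418). The RefSeq bounds of no gene hold these regions, so the intron comes from a longer transcript in the deposited annotation.

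Only 4 members stayed under 0.5 CPM in all 3 libraries of osimertinib DTP + AZD5153, and 3 of them lie in the chromosome X block. The member at chrX:58118333-58118834 had 0.319, 0.0956 and 0.226 CPM in DMSO, 3.28, 4.21 and 8.19 CPM in osimertinib DTP and 0.199, 0.316 and 0.160 CPM in osimertinib DTP + AZD5153. Its levels after AZD5153 lay within the DMSO range. Without replicate 3 its log2 fold change against osimertinib DTP was -4.19 ± 0.76 (SE, edgeR, adjusted p = 0.0387). The members at chrX:58197764-58198265 and chrX:58141270-58141771 had 2.05 to 6.28 and 2.71 to 3.70 CPM in osimertinib DTP. The fourth, at chr10:75358400-75358901, lies within the bounds of ZNF503, a zinc finger gene, and had 4.52, 2.16 and 2.47 CPM in osimertinib DTP and 0.497, 0.316 and 0 CPM in osimertinib DTP + AZD5153.

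Outside the blocks, the high members named next were above 2 CPM in replicates 1 and 2 of osimertinib DTP + AZD5153, and not all were in replicate 3. The member in an intron of NRXN3, a neurexin of presynaptic membranes, at chr14:78682752-78683253 had 0, 0.191 and 0 CPM in DMSO, with 6.21, 19.9 and 44.5 CPM in osimertinib DTP and 5.56, 42.7 and 1.44 CPM in osimertinib DTP + AZD5153. Replicates of both treated groups spread widely there.

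The member annotated to the 3' UTR of ATP13A4, a P5-type transport ATPase, at chr3:193483705-193484206 had the highest mean after AZD5153. It had 15.6, 17.4 and 24.1 CPM in osimertinib DTP and 35.3, 37.6 and 5.27 CPM in osimertinib DTP + AZD5153. Replicates 1 and 2 were above, and replicate 3 below, every osimertinib DTP library. The intron of NPR3, the clearance receptor of natriuretic peptides, had 19.7, 16.3 and 14 CPM at chr5:32692690-32693191 and then 34.2, 28.4 and 12.6 CPM, the highest level in replicate 3 among the named members. PDE1A, a calmodulin-dependent phosphodiesterase, had 13.3, 13.9 and 33.5 CPM at chr2:182587062-182587563 and then 21.3, 37.3 and 1.28 CPM. The file classes this region as distal intergenic, and it lies within the RefSeq bounds of PDE1A. Against osimertinib DTP none of these 4 passed the test: their log2 fold changes were -0.37 ± 0.91 at NRXN3, 0.55 ± 0.62 at ATP13A4, 0.69 ± 0.54 at NPR3 and 0.12 ± 0.76 at PDE1A (SE, edgeR). Without replicate 3 they were 0.16 ± 0.70, 1.01 ± 0.45, 0.97 ± 0.45 and 0.66 ± 0.49 (SE, edgeR, adjusted p from 0.219 to 0.908). Against DMSO all 4 did, with adjusted p from 0.00114 at ATP13A4 to 0.00233 at NRXN3, although the rule had fixed their DMSO levels.

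A pair in an intron of TPH2, the tryptophan hydroxylase of brain serotonin neurons, at chr12:71957650-71958151 and chr12:71958375-71958876, had 13.6, 15.2 and 24.4 CPM and 10.8, 15.3 and 24.1 CPM in osimertinib DTP. In osimertinib DTP + AZD5153 the pair had 13.8, 25 and 3.83 CPM and 14.3, 30.5 and 3.19 CPM. The member assigned to LINC02303, a non-coding RNA, had 10.2, 13 and 27.4 CPM and then 13, 23 and 1.44 CPM. A distal member assigned to CD101, an immunoglobulin-family protein of leukocytes, had 13, 13.6 and 27.5 CPM and then 18, 25.9 and 1.92 CPM. The member assigned to OR14K1, an olfactory receptor, lies within the bounds of its neighbour OR14A2. It had 14.2, 12.1 and 21.6 CPM and then 9.34, 9.57 and 6.39 CPM. At OR14K1 all 3 libraries with AZD5153 lay below the osimertinib DTP range, with a log2 fold change of -0.76 ± 0.51 (SE), or -0.65 ± 0.45 without replicate 3, that did not pass the test. A member near the start of MAP2, a microtubule protein of dendrites, had 9.04, 8.31 and 21.6 CPM at chr2:209425776-209426277 and then 15.4, 34.3 and 1.92 CPM. An unannotated member within PARD3B, a cell polarity gene, had 15.7, 15.9 and 22.1 CPM and then 34.1, 34.8 and 3.67 CPM. Another unannotated member, in LOC105373220 at chr1:238329842-238330343, had 11.3, 12.5 and 21 CPM and then 22.8, 27.2 and 0.639 CPM, so that its replicate 3 was close to DMSO.

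Besides LINC00662, 9 genes had 3 members each: ZDHHC17, a palmitoyltransferase, DCLK2, a doublecortin-like kinase, TPH2, VGLL2, a cofactor of TEAD factors, TAGAP, a GTPase-activating protein of T cells, the zinc finger genes ZNF431 and ZNF99, LINC02303 and LOC101927847. None of their members was called against osimertinib DTP. The TAGAP members had medians of 5.20, 5.40 and 9.20 CPM in osimertinib DTP and 10.8, 10.8 and 1.76 CPM with AZD5153, and those of ZNF431 had 7.80, 7.88 and 13.3 CPM and then 12.2, 14.9 and 2.24 CPM. The ZNF99 members, also on chromosome 19 but outside the block, had 3.05, 3.56 and 9.31 CPM and then 1.19, 2.95 and 0.160 CPM. Whether the genes differed from each other was not tested.

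A few further members stood out after AZD5153 and are named after their values had been seen. Between the mean of replicates 1 and 2 and the osimertinib DTP mean, 73 members were more than 1 higher on the scale of log2(CPM + 0.5), and 84 were more than 1 lower, 39 of them outside the blocks. Of all 169637 regions 9884 were more than 1 higher and 24224 more than 1 lower. The 2 promoter members of MIR100HG, the host gene of miR-100, let-7a-2 and miR-125b-1, at chr11:122038152-122038653 and chr11:122038866-122039367, had 7.34, 7.12 and 7.85 CPM and 6.67, 7.02 and 6.95 CPM in osimertinib DTP. They had 26, 20.4 and 2.24 CPM and 21.4, 25.5 and 2.39 CPM in osimertinib DTP + AZD5153, with replicates 1 and 2 above and replicate 3 below the earlier levels. Without replicate 3 their log2 fold changes were 1.71 ± 0.48 and 1.83 ± 0.49 (SE, edgeR, adjusted p = 0.0910 and 0.0834), which did not pass the threshold. The only member called higher without replicate 3 was chr3:83425956-83426457, within the bounds of LOC105377183, with 3.16, 2.70 and 3.14 CPM and then 19.2, 16.6 and 0.479 CPM (log2 fold change 2.65 ± 0.44, SE, edgeR adjusted p = 0.0387). Its replicate 3 was close to DMSO, which had 0.425, 0.287 and 0.339 CPM, and with all libraries the log2 fold change was 2.10 ± 0.78 (SE, edgeR) and not called.

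Few members lay at promoters. The deposited annotation covers 238 of the 622 members (38.3%, against 39.7% of all regions), assigned to 183 genes. Of these 238, 8 (3.36%, interval 1.46% to 6.52%) were in the promoter class within 1 kb of a start site, where 36.1% of all annotated regions were. Another 11 lay in the class from 1 to 3 kb. Introns held 131 (55.0%, against 31.6%), distal intergenic sequence 69 (29.0%, against 17.2%), 3' UTRs 10, exons 8 and 5' UTRs 1. The median distance to the annotated start site was 25.4 kb, against 4.28 kb over all annotated regions. Over the annotated regions of the reverse rule, described below, it was 25.9 kb. Of the genes assigned, protein-coding genes made up 66.4% of annotated members and long non-coding RNA genes 29.4%, against 82.9% and 13.2% of the 67336 annotated regions with a gene in RefSeq. Within the RefSeq bounds of a gene lay 54.2% of members and 72.4% of all regions. The 8 promoter members were assigned to PIK3C2A, PCSK7, MIR100HG with 2, BACH1, TMPRSS7, RXFP1 and C5orf46, with osimertinib DTP levels from 2.48 CPM at PIK3C2A to 20.9 CPM at TMPRSS7.

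**Figure D4:**
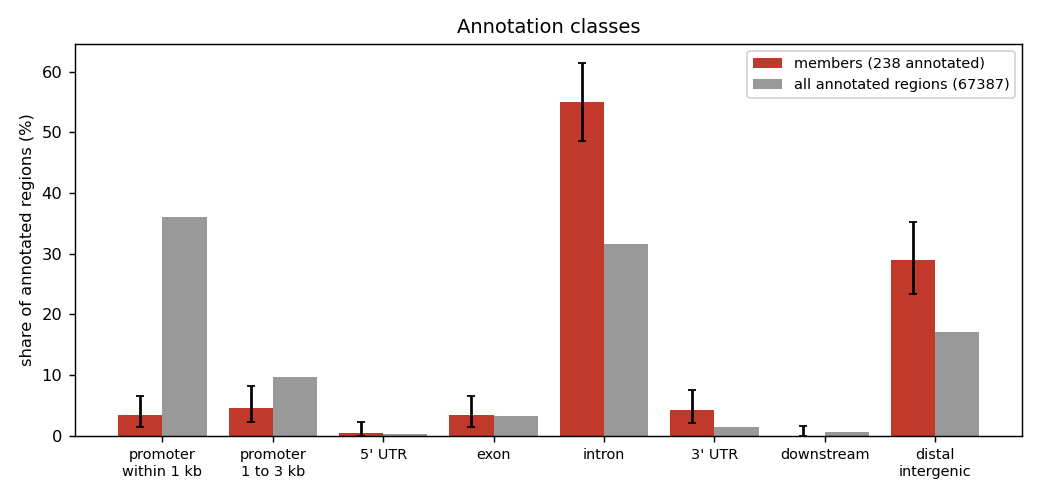
Share of annotated regions in each annotation class, in percent, for the 238 annotated members (red, with exact binomial intervals that cover counting error only) and all 67387 annotated regions (grey). The promoter class within 1 kb holds 3.36% of members and 36.1% of all regions, and introns hold 55.0% and 31.6%.

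Most members stood alone, and few lay close to regions with at least 2 CPM in DMSO. Another member lay within 10 kb for 229 of them (36.8%), and for 29.9% of the 442 regions of the reverse rule (at least 2 CPM in DMSO and under 0.5 CPM in osimertinib DTP), another of their own set did. The members formed 488 groups at that distance, 393 of them single members. The largest held 14 members over 44.8 kb of the chromosome 19 block, then came 6 members on chromosome X and 5 on chromosome 19, in the blocks, and 4 members each at chr4:54957741-54960312 and in the chromosome X block. The 16 groups of 3 members, not all named here, included 1 at ACSM3, an acyl-CoA synthetase gene, with 3.50, 4.32 and 5.16 CPM in osimertinib DTP and 0.795, 1.58 and 0.479 CPM after AZD5153. Others were higher in replicates 1 and 2, such as 1 at GASK1B, with 5.42, 5.07 and 11.9 CPM and then 19.8, 13.5 and 1.60 CPM. The chromosome 4 group had medians of 5.08, 2.97 and 8.58 CPM in osimertinib DTP and 8.10, 8.68 and 1.28 CPM in osimertinib DTP + AZD5153. The nearest region with at least 2 CPM in all DMSO libraries was a median of 78.5 kb away from a member, and within 10 kb of 56 members (9.0%). For the 87694 other regions without that level in DMSO it was 4.81 kb away, and within 10 kb of 62.0%. These regions only missed 2 CPM in some DMSO library, while the rule held members under 0.5 CPM in all of them. The rule thus favours a larger distance for members, and regions of equally low DMSO level were not compared. Members were most frequent on chromosome X, with 9.77 in 1000 regions, or 5.73 without the block, and on chromosome 4, with 7.71. They were fewest on chromosomes 20 and 22, with 0.381 and 0.433. Neighbouring regions share fragments and are not independent.

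The reverse rule, at least 2 CPM in all DMSO and under 0.5 CPM in all osimertinib DTP libraries, gave 442 regions. Of these, 85.97%, 81.7% and 90.05% stayed under 0.5 CPM in replicates 1 to 3 of osimertinib DTP + AZD5153, and 0 reached 2 CPM in replicates 1 and 2 together, where 476 of the 622 members did. In the promoter class within 1 kb lay 2.88% of the annotated regions of this set, in introns 44.2%. Their median distance to the start site was 25.9 kb, with 67.3% assigned to protein-coding and 23.1% to long non-coding RNA genes. Of all 442, 52.7% lay within the RefSeq bounds of a gene. The members had 3.36%, 55.0%, 25.4 kb, 66.4%, 29.4% and 54.2% in the same order. The low promoter share and the large distance are thus not particular to the members.

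Most gene lists held no member. No member was assigned to the 10 MAPK pathway output genes (90 annotated regions), the YAP and TAZ targets (372 regions), the EMT genes (165 regions), the AP-1 genes (74 regions), the lung lineage genes (35 regions), the axon guidance genes (340 regions) or the interferon and antigen presentation genes (64 regions). Over all annotated regions 0.353% were members. At that share lists of these sizes would hold few members or none, so the empty lists do not differ clearly from other regions. Of 135 regions of bypass receptors 1 was a member (0.741%), in an intron of ERBB4, a receptor of the EGFR family, with 5.76, 4.42 and 7.29 CPM in osimertinib DTP and 9.64, 9.99 and 0.798 CPM in osimertinib DTP + AZD5153. Of 62 regions of synapse adhesion genes 2 were members (3.23%), at NRXN3 and at CNTN5, a contactin, which had 5.88, 7.34 and 9.87 CPM and then 18, 20.9 and 2.87 CPM. Of 1256 regions assigned to a gene whose symbol starts with ZNF, a list added after the data had been seen, 6 were members (0.478%), at ZNF431 and ZNF99. Of 205 regions of collagen genes 2 were members (0.976%), both in an intron of COL6A6, a chain of type VI collagen, with 8.93, 5.29 and 8.19 CPM and 10.5, 4.32 and 6.39 CPM in osimertinib DTP. In osimertinib DTP + AZD5153 the COL6A6 pair had 8.05, 4.21 and 2.39 CPM and 8.35, 5.16 and 0.479 CPM, with the groups overlapping.

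Regions chosen on part of the libraries were read in the library left out. The rule was applied to 2 replicate numbers of DMSO and osimertinib DTP, and the levels of the remaining number were then examined, which that choice had not used. Leaving out number 1 gave 1834 regions, of which 77.0% (75.0% to 78.9%) reached 2 CPM in the left-out osimertinib DTP library, where 67.7% of all regions did, and 1.64% in the left-out DMSO library, where 66.5% did. Leaving out number 2 gave 1325 regions, with 53.9% (51.2% to 56.6%) against 46.5% in osimertinib DTP and 0% against 53.1% in DMSO. Leaving out number 3 gave 861 regions, with 96.4% (94.9% to 97.5%) against 68.0% and 0% against 64.2%. Within the left-out number the osimertinib DTP level exceeded the DMSO level at 99.2%, 97.9% and 100% of these regions. The same-numbered osimertinib DTP + AZD5153 library reached 2 CPM at 71.0%, 72.4% and 24.2% of them. At those inside the blocks, whose bounds all replicates had set, it did so at 5.17% of 58, 18.8% of 69 and 1.96% of 51, and at the others at 73.2%, 75.3% and 25.6%. In every left-out number the blocks had the lower share after AZD5153.

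Sequences are shown for members that overlap the promoter window of a gene or a small RNA, which ties them to a gene by position. The windows are RefSeq promoters of build GRCh38.p14, from 250 bases before to 50 after a start site, and 4 of them overlap a member. Capitals mark the bases that lie within the member. LOC105377378 is an uncharacterised RNA gene with its window at chr4:114364864-114365163 on the minus strand, 241 bases of it in the member. C5orf46 is a protein-coding gene with its window at chr5:147906489-147906788 on the minus strand, 115 bases of it in the member, which does not reach the start site.
LOC105377378: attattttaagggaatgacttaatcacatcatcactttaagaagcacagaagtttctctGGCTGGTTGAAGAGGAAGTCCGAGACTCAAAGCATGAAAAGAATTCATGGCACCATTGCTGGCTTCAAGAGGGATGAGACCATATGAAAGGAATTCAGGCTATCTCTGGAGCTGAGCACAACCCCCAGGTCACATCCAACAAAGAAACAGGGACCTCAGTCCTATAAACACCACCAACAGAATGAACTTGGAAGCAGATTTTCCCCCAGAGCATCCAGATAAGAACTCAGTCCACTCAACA
C5orf46: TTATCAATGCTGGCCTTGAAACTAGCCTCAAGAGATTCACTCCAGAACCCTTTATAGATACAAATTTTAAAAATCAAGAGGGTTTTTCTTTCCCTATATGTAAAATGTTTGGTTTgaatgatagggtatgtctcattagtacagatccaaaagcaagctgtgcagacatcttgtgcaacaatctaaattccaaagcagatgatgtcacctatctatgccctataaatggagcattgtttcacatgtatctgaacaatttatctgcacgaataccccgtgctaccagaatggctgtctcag
The member at LOC105377378 had 10.5, 10.3 and 17 CPM in osimertinib DTP and 19.4, 20.4 and 2.55 CPM in osimertinib DTP + AZD5153. That at C5orf46 had 3.62, 3.67 and 5.83 CPM and then 3.78, 5.26 and 0.479 CPM. The AP-1 motif TGANTCA, sought on both strands, was in 0 of the 4 windows and in 7.71% of all 35116 RefSeq windows. The TEAD motif GGAATG, sought on both strands, was in 3 of the 4, that of LOC105377378 included, each time outside the member, and in 14% of all windows. A match is a stretch of letters and not a bound site.

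The hairpin of miR-676, a microRNA in an intron of EDA, lies at chrX:70022857-70022923 on the plus strand (GRCh38.p14) within the member at chrX:70022750-70023251. It is the only microRNA hairpin of the RefSeq table that a member overlaps. Capitals mark the seed, bases 2 to 8, and the arms do not share it.
hsa-miR-676-5p: uCUUCAACcucaggacuugca
hsa-miR-676-3p: cUGUCCUAagguuguugaguu
This member had 0.425, 0 and 0.226 CPM in DMSO, 2.49, 4.32 and 10.3 CPM in osimertinib DTP and 2.09, 6.63 and 1.28 CPM in osimertinib DTP + AZD5153. The treated groups overlapped, with a log2 fold change of -0.61 ± 0.73 (SE, edgeR) between them, or -0.27 ± 0.63 without replicate 3. H3K27ac over a hairpin measures chromatin and not the microRNA itself.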

How the data were processed

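H3K27ac ChIP-seq was analysed in 9 libraries and 1 input. The authors deposited raw read counts for 169637 regions, a second table of counts with gene, class and distance to the start site for 67387 of them (equal counts in both), and 1 peak list per H3K27ac library with a score, a fold enrichment ratio and −log10 p and q values. Per the submitters' processing notes, BWA 0.7.17, MACS2 2.2.6, featureCounts 2.0.0, ChIPseeker 1.29.1 and build hg38 were used. Read counts per region can differ with duplicate removal, which is not given in the sources used here. The score was not used.

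CPM were computed on raw column totals. edgeR 4.0.16 (R 4.3.3) was run once on the 9 libraries (filterByExpr, TMM, robust quasi-likelihood, 157919 regions), and checked on simulated data; DESeq2 1.42.0, other filters, scalings and designs, and leaving out each library were alternatives. Replicates are called biological in the labels, which do not describe separate cultures further. Peaks overlapped a region if they shared 1 bp. Intervals are exact binomial at 95%. The peak thresholds, block sums and the naming of blocks, of MIR100HG and of single calls were chosen after seeing the data. The members and lists were chosen with earlier results of these data known. Named regions were the 10 annotated members highest in osimertinib DTP, the 8 highest after AZD5153, the highest (up to 6) under 0.5 CPM in all 3 libraries after AZD5153, the 6 groups with most members (only examples of the tied groups of 3), the 6 genes with most members (ties included), and up to 3 per gene list. One region that this rule names is not reported here. Same-numbered DMSO and osimertinib DTP libraries deviated together (r of 0.334, 0.355 and 0.324), all above a limit of 0.1, so the titles' numbers were taken to pair them. The labels do not say what a number marks, and differently numbered libraries were not correlated, so the pairing is not settled. No genome sequence was used, so motifs were sought only in promoter windows.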

Additional observations from a re-analysis of the deposited data

How the results depend on the processing

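The number of regions meeting the rule was 96 at a DMSO limit of 0.25 CPM, 2438 at 1 CPM, 1707 at an osimertinib DTP limit of 1 CPM, 159 at 4 CPM and 649 to 1412 without 1 library, most without replicate 1 of DMSO (1412) or replicate 2 of osimertinib DTP (1152). Members at 2 CPM in all osimertinib DTP + AZD5153 libraries made up 23.6% with TMM-scaled CPM and 38.4% at 1 CPM, and 19.6% to 76.5% without 1 library, the highest without replicate 3. The shares reaching the limit in the left-out osimertinib DTP library were 71.6%, 66.0% and 94.4% with TMM-scaled CPM and 93.9%, 83.8% and 99.4% at 1 CPM, for numbers 1 to 3. Members called against osimertinib DTP were 13 lower with DESeq2, 0 to 7 lower and 0 to 1 higher without 1 library. Against DMSO, 236 were called in osimertinib DTP + AZD5153 when only both groups entered the fit, since 238 members then passed the filter, and 434 to 591 without 1 library. In osimertinib DTP 231 to 622 were called without 1 library, with 231 without replicate 2 and 366 without replicate 3 of DMSO. With a replicate block the counts were 616 in osimertinib DTP against DMSO, which the numbers pair, 515 in osimertinib DTP + AZD5153 against DMSO and 0 in either direction against osimertinib DTP. In the last 2 comparisons correlations of same-numbered libraries ran from -0.24 to 0.55, so the samples share only a number there. Without replicate 2 of osimertinib DTP + AZD5153 the mean summed level of that group fell from 212 to 120 CPM over the chromosome 19 block and from 65.4 to 32.4 CPM over the chromosome X block. The causes were not tested.

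Depth limits the members: the lowest summed osimertinib DTP count was 59 reads, and replicate 3 of osimertinib DTP + AZD5153 had a median of 5 reads per member. Groups of 3 libraries are too small for a test of outlying samples.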
